A study of Mus musculus with 6 samples.

Results

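The cholesterol synthesis genes and their sterol regulators, 28 genes in all, were examined in MLO-Y4 cells with and without low-intensity pulsed ultrasound (LIPUS), out of 53797 genes listed in the table. The members were picked by gene symbol, and each matched a single row. They comprise 19 enzymes from acetoacetyl-CoA to cholesterol, 5 regulators (Insig1, Insig2, Srebf1, Srebf2, Scap) and 4 sterol transport genes (Stard4, Abca1, Npc1, Npc2). MLO-Y4 is a mouse cell line described by its label as osteocyte-like. In the LIPUS group, 3 cultures in medium with 10% serum received pulsed ultrasound at 1.5 MHz and 30 mW/cm2 for 20 min, and RNA was taken 30 min later. The Control group comprised 3 untreated cultures in the same medium, placed in wells of the same plates over transducers that were left unplugged, so that the groups shared a plate and its water bath. A single FPKM (fragments per kilobase of exon, scaled to the mapped reads of a library) is given for each group, pooled over its cultures. No value of a single culture was analysed here, so no SD can be given, no test was run, and whether any difference below exceeds the spread between cultures was not tested. The study describes a Control culture that stood apart from the other Control cultures in a principal component plot. The pooled Control value includes that culture, and no value without it can be given here. The study proposes that ultrasound leaking to Control wells of the shared plate may explain this variation. Whether Control cultures were stimulated in that way was not tested here.

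Cholesterol is built from acetyl-CoA through mevalonate, the isoprenoid diphosphates, squalene and lanosterol. Transcription of these enzymes is driven by the SREBP factors (Srebf1, Srebf2), membrane proteins of the endoplasmic reticulum that Scap escorts to the Golgi for cleavage when sterols are scarce and that the Insig proteins retain when sterols are plentiful. Cells in serum also take up cholesterol from lipoproteins, which Npc1 and Npc2 release from lysosomes. The isoprenoid intermediates also anchor small GTPases to membranes, and Fdps, which makes the first of them, is the enzyme that nitrogen-containing bisphosphonates block in bone.

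Messenger RNAs of the enzymes were lower in the LIPUS group than in the Control group nearly throughout the pathway. A log2 ratio of LIPUS over Control was computed for the 11465 genes with a mean FPKM of at least 1 over both groups and a value above 0 in both. Of the 19 enzymes, 18 had a log2 ratio below 0, or 94.7%, against 50.1% of all genes over this floor, although Ggps1 among them was level between the groups. In 12 enzymes, or 63.2%, the LIPUS value was more than 20% below Control, which was so in 17.8% of all genes. No enzyme was more than 25% above Control, the same fold in the other direction, against 16.8% of all genes. Over all 27 members above the floor, 22 had a log2 ratio below 0, or 81.5%. Past a fold of 1.5 there were 4 lower members, all of them enzymes (Acat2, Mvd, Fdps and Hmgcs1), against 8.08% of all genes. The single member higher past that fold was Scap, against 7.48% of all genes. The median log2 ratio was -0.42 over the enzymes and -0.00 over the 8 regulators and transport genes above the floor, beside -0.0014 over all genes. Summed over the enzymes, the FPKM was 580 in Control and 438 with LIPUS, a difference of -24.5%. In bulk RNA, less RNA per cell and fewer cells that express a gene cannot be told apart.

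**Figure D1:**
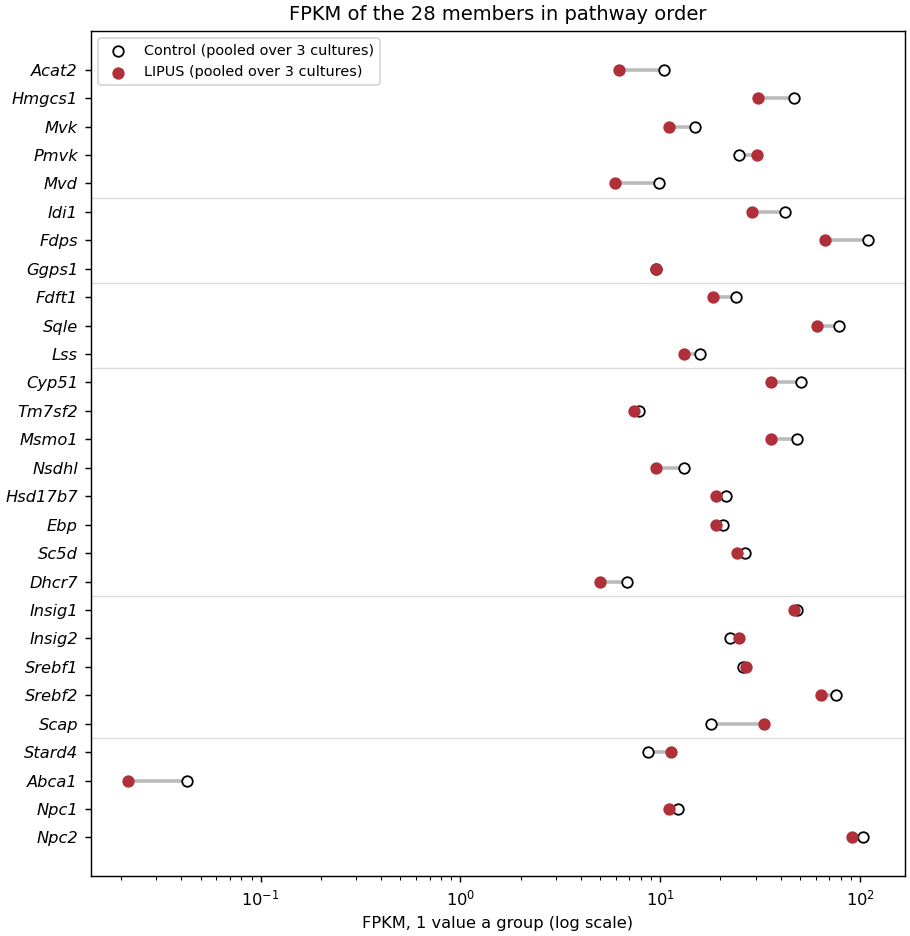
FPKM of the 28 members on a log axis, in pathway order from Acat2 to Dhcr7 and then regulators and transport genes; open circles are the pooled Control value and filled circles the pooled LIPUS value, with a grey line between them. The filled circle lies left of the open one for nearly every enzyme and to the right for 5 members, Pmvk, Insig2, Srebf1, Scap and Stard4; Ggps1 shows a single point because its values coincide, and Abca1 lies far below the rest.

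The first steps, which make mevalonate from acetyl-CoA units and activate it, held 3 of the 4 members lower past a fold of 1.5. Acat2, the cytosolic thiolase that joins acetyl-CoA units, stood at 10.4 FPKM in Control and 6.24 FPKM with LIPUS, a log2 ratio of -0.74. Summed with its near-identical copy Acat3, the log2 ratio was -0.21 and no longer past that fold. This leaves 3 of 27 members lower in place of 4, against 8.08% of all genes. Hmgcs1, the synthase of the next step, stood at 46.5 and 31.0 FPKM, a log2 ratio of -0.59. At a fold of 1.503, Hmgcs1 lies just past the threshold, and Idi1 just short of it at 1.470. Mvk, which phosphorylates mevalonate, stood at 14.9 FPKM in Control and 11.1 FPKM with LIPUS, and Mvd, the decarboxylase that closes this stretch, at 9.83 and 5.95 FPKM. Their log2 ratios were -0.43 and -0.72. Pmvk, the kinase between Mvk and Mvd, was the exception among all enzymes, with 24.9 FPKM in Control and 30.5 FPKM with LIPUS, a log2 ratio of 0.29.

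The promoters of the members past a fold of 1.5 are shown because the enzymes were lower together while Scap was higher. Fdps has no window in the table used. The RefSeq windows of GRCm38.p6 run from 250 bases before to 50 bases after an annotated start site, on the strand of the gene. Capitals mark a sterol regulatory element core (TCACNCCAC) or a CCAAT box, the letters bound by NF-Y, on either strand, where a CCAAT box on the other strand reads ATTGG. Acat2 is taken from chr17:12960676-12960975 (minus strand), Hmgcs1 from chr13:119690101-119690400 (plus strand), Mvd from chr8:122443373-122443672 (minus strand) and Scap, at the first of 2 listed starts, from chr9:110333038-110333337 (plus strand).
Acat2: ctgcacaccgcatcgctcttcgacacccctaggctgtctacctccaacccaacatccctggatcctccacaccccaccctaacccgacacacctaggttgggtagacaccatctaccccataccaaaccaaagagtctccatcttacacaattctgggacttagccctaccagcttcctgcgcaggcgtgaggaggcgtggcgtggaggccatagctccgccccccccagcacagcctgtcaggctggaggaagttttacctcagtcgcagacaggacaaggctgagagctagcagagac
Hmgcs1: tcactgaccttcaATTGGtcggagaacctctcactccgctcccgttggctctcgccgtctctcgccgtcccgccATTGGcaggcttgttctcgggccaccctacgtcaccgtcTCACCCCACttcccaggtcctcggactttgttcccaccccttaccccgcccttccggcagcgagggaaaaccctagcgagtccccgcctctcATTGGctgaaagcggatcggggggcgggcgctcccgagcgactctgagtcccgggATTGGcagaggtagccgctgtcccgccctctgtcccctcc
Mvd: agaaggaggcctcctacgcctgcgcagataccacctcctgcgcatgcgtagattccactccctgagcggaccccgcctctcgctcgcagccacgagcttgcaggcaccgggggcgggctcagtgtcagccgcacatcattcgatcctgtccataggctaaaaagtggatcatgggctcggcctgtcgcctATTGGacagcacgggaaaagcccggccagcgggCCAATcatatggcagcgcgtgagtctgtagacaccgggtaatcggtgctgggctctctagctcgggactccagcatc
Scap: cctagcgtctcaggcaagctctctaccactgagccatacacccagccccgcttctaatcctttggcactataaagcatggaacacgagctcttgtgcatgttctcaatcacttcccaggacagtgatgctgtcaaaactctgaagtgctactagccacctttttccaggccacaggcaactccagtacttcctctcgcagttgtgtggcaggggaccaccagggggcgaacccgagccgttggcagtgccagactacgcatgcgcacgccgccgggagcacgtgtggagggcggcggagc

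Hmgcs1 held the only match to the sterol regulatory element core among the members, with its first base at -137 from the start site, and 4 CCAAT boxes. Mvd held 2 CCAAT boxes, first bases at -60 and -27. Acat2 and both Scap windows held neither motif. Windows were found by symbol for 23 of the 28 members, leaving out Fdps, Fdft1, Sqle, Stard4 and Npc1. A CCAAT box lay in a window of 15 of the 16 enzymes found, or 93.8%, against 43.4% of the 8648 genes over the floor that have a window, and Acat2 was the enzyme without one. The sterol regulatory element core lay in 1 of the 16 enzymes, or 6.25%, against 1.39% of these genes. A GC box (GGGCGG) lay in 14 enzymes, or 87.5%, against 71.2%, an E-box (CACGTG) in 3 enzymes, or 18.8%, against 12.3%, and an Egr site (GCGNGGGCG) in 1 enzyme, Dhcr7, or 6.25%, against 12.6%. Over the 23 members found, a CCAAT box lay in 20, or 87%, so it was not particular to the enzymes. Insig1, Insig2, Srebf1, Srebf2 and Npc2 held it. So did the enzymes Pmvk, higher with LIPUS, and Ggps1, level between the groups. Insig1 and the second Scap window also held an Egr site, which makes 3 of 23 members, or 13%, against 12.6%. All motifs were searched on both strands, and an Egr site can overlap a GC box. A match is a run of letters and not a shown binding site, and genes with more windows had more chances of a match.

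**Figure D2:**
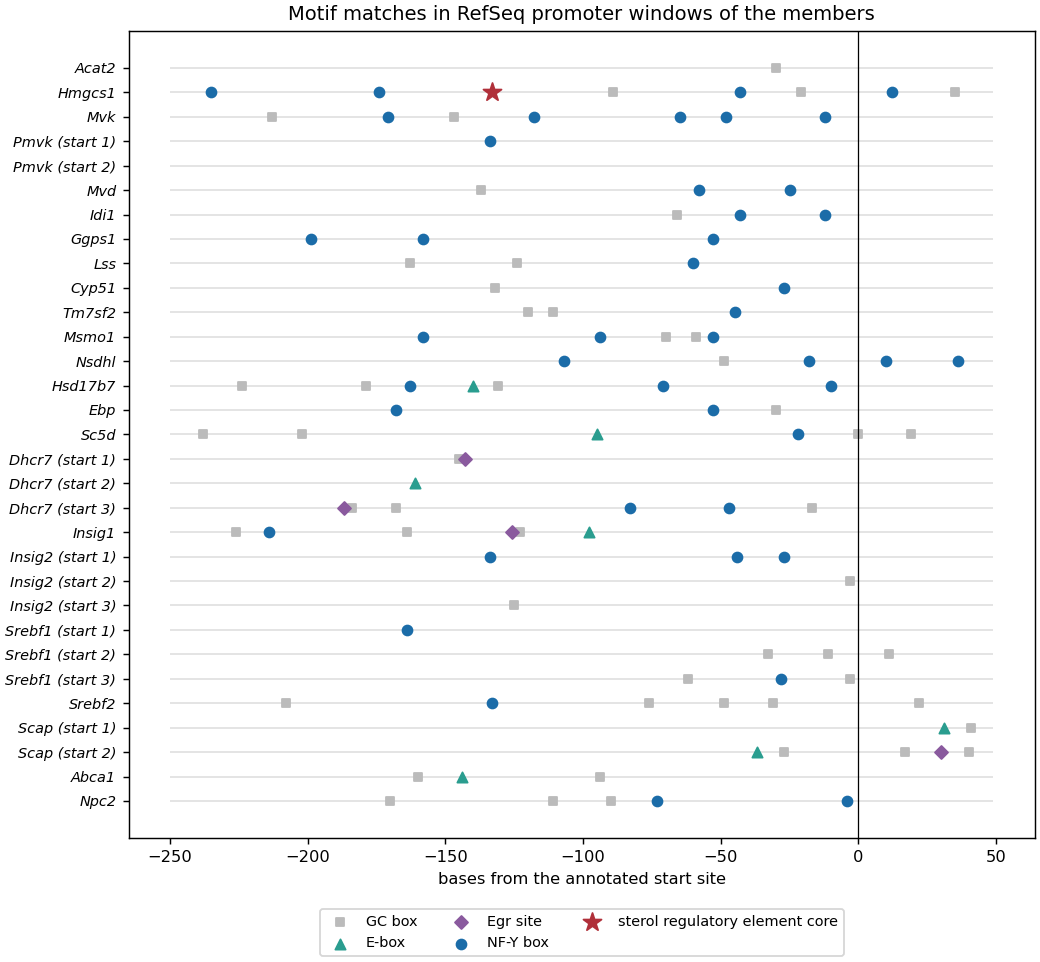
Position of motif matches in the RefSeq promoter windows of the members found; the x axis is the distance in bases from the annotated start site and each row is 1 window, with numbered rows for genes with several starts and each symbol at the centre of its match. Circles (CCAAT boxes, named NF-Y box in the key) occur in all rows of enzymes with a single start other than Acat2, and the star marks the one sterol regulatory element core, in Hmgcs1.

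The isoprenoid steps included the most abundant enzyme of the pathway. Fdps, which makes farnesyl diphosphate, stood at 109 FPKM in Control and 66.6 FPKM with LIPUS, a log2 ratio of -0.71. Idi1, the isomerase that supplies its substrates, stood at 42.3 and 28.8 FPKM, a log2 ratio of -0.56. Ggps1, which leads away from sterols to geranylgeranyl diphosphate for protein prenylation, stood at 9.56 and 9.55 FPKM. The pathway's branch enzyme was thus level between the groups while both enzymes before it were lower with LIPUS.

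All 3 enzymes that carry farnesyl diphosphate to lanosterol were lower with LIPUS, by 1.212-fold to 1.301-fold. Fdft1, the squalene synthase, stood at 23.9 FPKM in Control and 18.4 FPKM with LIPUS. Sqle, the squalene epoxidase and a rate-limiting step, stood at 78.1 and 61.1 FPKM, and Lss, which closes the sterol rings to lanosterol, at 15.8 and 13.1 FPKM. The log2 ratios were -0.38, -0.35 and -0.28 in that order.

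The 8 enzymes after lanosterol were all lower with LIPUS, 4 of them by a larger and 4 by a smaller difference. Cyp51, the lanosterol demethylase, stood at 50.7 FPKM in Control and 35.7 FPKM with LIPUS, a log2 ratio of -0.51. Nsdhl and Msmo1, which take part in removing methyl groups from the sterol ring, stood at 13.2 and 48.3 FPKM in Control and at 9.53 and 36.0 FPKM with LIPUS. Dhcr7, the last reductase before cholesterol, stood at 6.84 and 5.00 FPKM. These 4 genes were lower by 1.342-fold to 1.422-fold. The other 4 were lower by 1.059-fold to 1.114-fold only, and all lay between the quartiles of all genes, -0.22 and 0.21. They were Tm7sf2, a sterol reductase, with 7.83 FPKM in Control and 7.39 FPKM with LIPUS, Hsd17b7, a ketosteroid reductase, with 21.2 and 19.1 FPKM, Ebp, the sterol isomerase, with 20.6 and 19.1 FPKM, and Sc5d, a desaturase, with 26.5 and 24.1 FPKM.

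**Figure D3:**
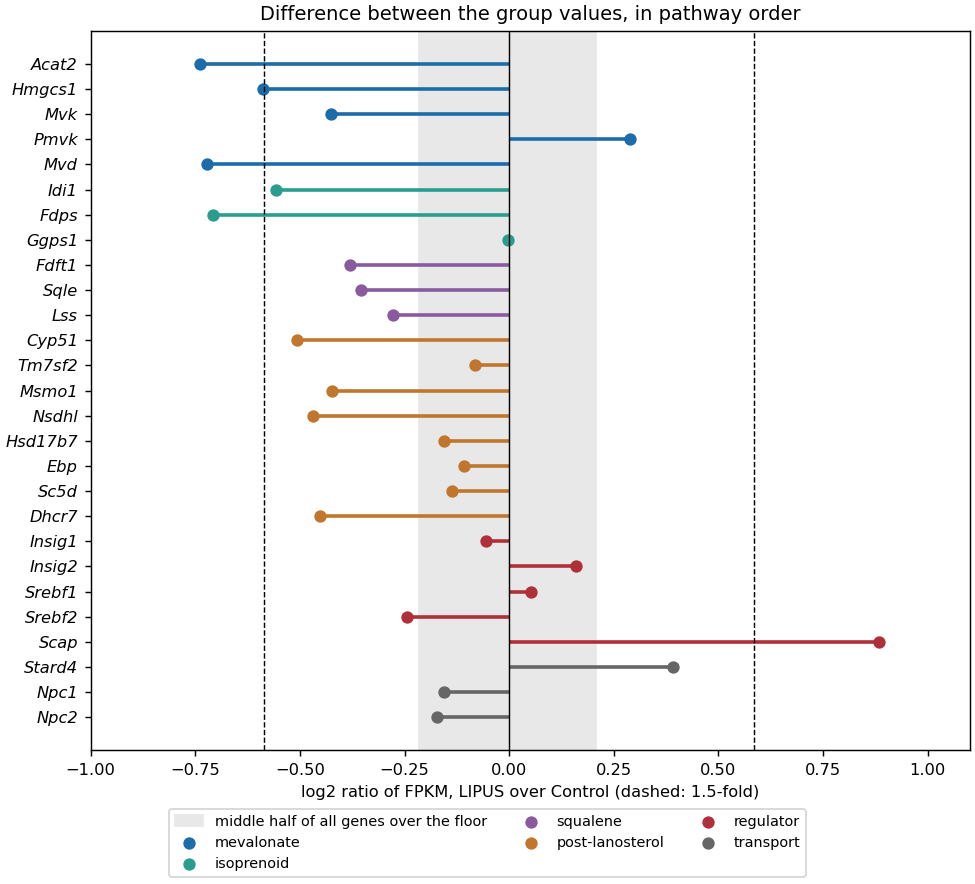
log2 ratio of FPKM, LIPUS over Control, of the 27 members over the floor in pathway order, coloured by step; the grey band lies between the quartiles of all genes over the floor (-0.22 to 0.21) and dashed lines mark a fold of 1.5. Acat2, Mvd, Fdps and Hmgcs1 lie at or beyond the left dashed line, Scap beyond the right one, and the median of the 5 mevalonate genes is -0.59 against -0.29 for the 8 post-lanosterol genes.

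Differences between 2 pooled values scatter more widely for weakly expressed genes, so the members were also placed among genes of like level. Among the 2233 genes with a mean FPKM of 30 to 100, the log2 ratios at the 5th and 95th percentiles were -0.42 and 0.42, while among the 1912 genes of 5 to 10 FPKM they were -0.77 and 0.75. Of the 6 enzymes in the 30 to 100 range, 5 lay under the 5th percentile. Their percentiles were 1.6 for Fdps, 2.5 for Hmgcs1, 2.8 for Idi1, 3.5 for Cyp51 and 4.9 for Msmo1, and Sqle lay at 7.4. None of the other 13 enzymes did, as Acat2 and Mvd, with the most negative ratios, lay at percentiles 5.8 and 6.0 of their own range. These places describe spread between genes, not error between cultures.

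**Figure D4:**
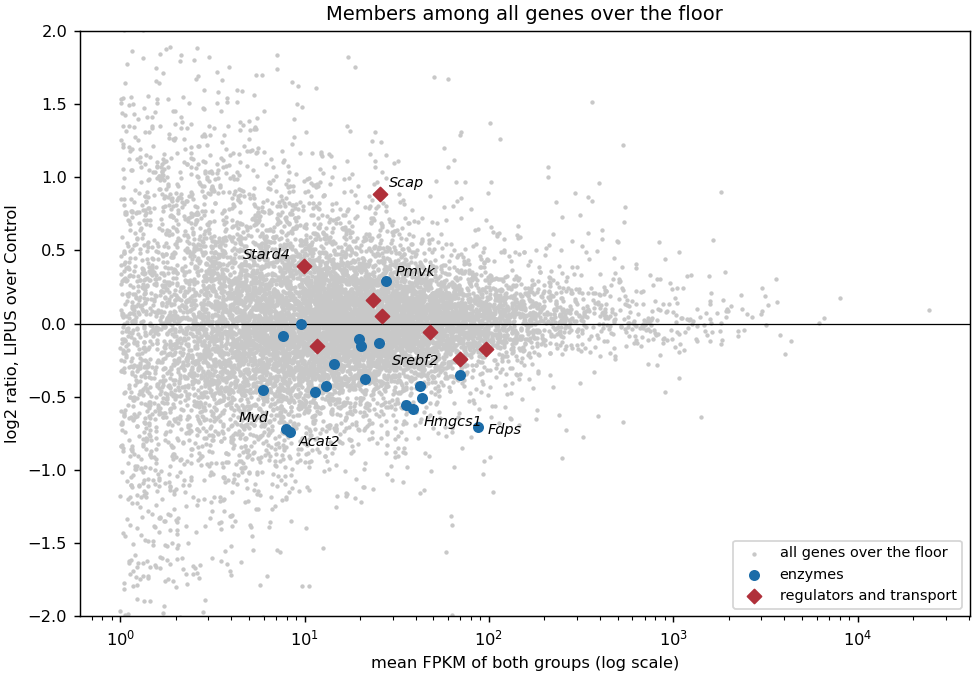
Mean FPKM of both groups (log axis) against the log2 ratio of LIPUS over Control for the genes over the floor (grey), with 103 genes beyond a log2 ratio of 2 not drawn; circles are enzymes and diamonds regulators and transport genes. The grey cloud narrows to the right, and Fdps, Hmgcs1 and their neighbours at 30 to 100 FPKM lie along its lower edge, with Scap near its upper edge.

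Among the regulators, Scap stood apart. Scap, the sterol-sensing escort of the SREBPs, had 17.9 FPKM in Control and 33.1 FPKM with LIPUS, a log2 ratio of 0.88, and 406 of the genes over the floor had a higher ratio. It lay at percentile 98.6 of the genes with 10 to 30 FPKM. Srebf2, the SREBP chiefly tied to cholesterol genes, stood at 75.7 and 63.9 FPKM, a log2 ratio of -0.25. Srebf1, whose products also drive fatty acid genes, stood at 25.8 and 26.8 FPKM. Insig1, itself an SREBP target, stood at 48.6 FPKM in Control and 46.8 FPKM with LIPUS, and its paralogue Insig2 at 22.2 and 24.8 FPKM. The log2 ratios of Srebf1, Insig1 and Insig2, 0.05, -0.06 and 0.16, all lay between the quartiles of all genes.

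Of the transport genes, Stard4, a cytosolic sterol carrier, had 8.65 FPKM in Control and 11.3 FPKM with LIPUS, a log2 ratio of 0.39. Npc1 stood at 12.3 and 11.0 FPKM and Npc2 at 103 and 91.0 FPKM, with log2 ratios of -0.16 and -0.17. Abca1, the exporter of cholesterol to apolipoproteins, was the member under the floor, with 0.0426 FPKM in Control and 0.0216 FPKM with LIPUS. At such values no ratio was read from it.

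Some members share sequence with other genes, which bears on how reads were assigned. In GENCODE M21 on GRCm38, Acat2 lies on chromosome 17 from 12942890 to 12960747, minus strand, and 1477 bases of its longest coding transcript match Acat3 on the same chromosome at 97.698% identity. Acat3 stood at 13.7 FPKM in Control and 14.7 FPKM with LIPUS, and the sum of both genes at 24.2 and 20.9 FPKM, a log2 ratio of -0.21 in place of -0.74 for Acat2 alone. A further stretch of 445 bases matches Tcp1, a chaperonin subunit, at 98.652% identity, and Tcp1 stood at 236 FPKM in Control and 231 FPKM with LIPUS. Fdft1, on chromosome 14 from 63145150 to 63179578, shares 774 exonic bases with Ctsb, a lysosomal protease on the other strand with 320 FPKM in Control and 451 FPKM with LIPUS. Hmgcs1, on chromosome 13 from 119690379 to 119708260, plus strand, shares 557 exonic bases with Gm48342 on the other strand, which had 11.7 and 9.01 FPKM. Mvd, on chromosome 8 from 122433601 to 122443422, lies within Gm20388 on the other strand, with 4.08 and 21.5 FPKM, but shares no exonic base with it. Scap, on chromosome 9 from 110333288 to 110384950, plus strand, shares 985 exonic bases with the opposite transcript 5830462I19Rik, which had 1.54 and 1.28 FPKM. Cyp51, Ggps1, Tm7sf2, Srebf1 and Npc1 also overlap an exon of another gene at 1 FPKM or more. Fdps, on chromosome 3 from 89093588 to 89101959, minus strand, has several processed pseudogenes, of which the one with any signal, Gm3571, reached 0.211 FPKM. It also shares 1124 exonic bases with Gm43738, a protein-coding gene on the same strand, which had 0 FPKM in Control and 0.235 FPKM with LIPUS. The libraries were made with a stranded kit, and whether the FPKM used the strand is not given in the sources used here. Over the 13 enzymes that share no such sequence with a gene at 1 FPKM or more, the median log2 ratio was again -0.42. Of these enzymes, 8 were more than 20% below Control, against 17.8% of all genes.

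The other genes of sterol and lipid metabolism were described from 6 lists. In the list of SREBP-linked fatty acid synthesis, 11 of the 14 genes over the floor had a log2 ratio below 0, against 50.1% of all genes, with a median of -0.36. More than 20% below Control were 9 of them, against 17.8% of all genes, and more than 25% above it was 1, Me1 (malic enzyme), against 16.8%. Fads2, a fatty acid desaturase, had 25.7 FPKM in Control and 12.3 FPKM with LIPUS, a log2 ratio of -1.07. Acss2, which makes acetyl-CoA from acetate, had 2.23 and 0.796 FPKM, and Lpin1, a phosphatidate phosphatase, 2.15 and 1.05 FPKM. Those were the 3 genes of the list past a fold of 1.5, against 8.08% of all genes lower by as much, and Acss2 and Lpin1 lie at low levels, where the 5th percentile of genes with 1 to 5 FPKM was -1.36. The log2 ratio was -1.49 for Acss2 and -1.03 for Lpin1. Acss2 was under 1 FPKM with LIPUS and passed the floor only through Control, the group where it was higher, so nothing is read from its call.

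Genes that process the SREBPs or degrade pathway enzymes when sterols are high had a median of -0.11 over 8 genes. None of them was past a fold of 1.5, against 8.08% of all genes lower and 7.48% higher by as much. Mbtps2, a protease that frees the SREBPs, had 9.06 FPKM in Control and 7.13 FPKM with LIPUS, and Erlin1, of the degradation machinery, 25.2 and 20.6 FPKM. The 12 genes of sterol uptake, esterification and transfer had a median of 0.06. Soat1, which esterifies cholesterol for storage, had 14.1 FPKM in Control and 23.3 FPKM with LIPUS, a log2 ratio of 0.72, and was the one gene of that list past a fold of 1.5, against 7.48% of all genes higher by as much. Plin2, a coat protein of lipid droplets, had 28.2 and 40.2 FPKM, a log2 ratio of 0.51. The 14 genes of isoprenoid use had a median of 0.07 with none past that fold, against 8.08% of all genes lower and 7.48% higher. The widest were Rabggta (3.82 and 5.51 FPKM), a Rab prenyltransferase subunit, and Rce1 (19.9 and 13.9 FPKM), which trims prenylated proteins.

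In the list of LXR receptors, LXR targets and oxysterol enzymes, 9 genes over the floor had a median of 0.13. Ch25h, which makes an oxysterol that blocks SREBP cleavage, had 1.69 FPKM in Control and 0.549 FPKM with LIPUS. Cyp46a1, another oxysterol enzyme, had 1.28 and 0.825 FPKM, and Mylip, an LXR target that marks lipoprotein receptors for degradation, 1.39 and 2.69 FPKM. Their log2 ratios were -1.62, -0.63 and 0.95, which makes 2 of 9 lower and 1 of 9 higher past a fold of 1.5, against 8.08% and 7.48% of all genes. Ch25h and Cyp46a1 were under 1 FPKM with LIPUS and passed the floor only through Control, the group where they were higher. The floor thus favoured a lower ratio for both, and nothing is read from these 2 calls. Among genes of 1 to 5 FPKM, only the log2 ratio of Ch25h of these 3 lay outside the 5th to 95th percentile, -1.36 to 1.20. Abcg1, an exporter of cholesterol, is listed at 0 in both groups. The accessory and related enzymes had a median of -0.13 over 8 genes with none past a fold of 1.5, against 8.08% of all genes lower and 7.48% higher. Acat1, a mitochondrial thiolase, had 26.4 FPKM in Control and 20.3 FPKM with LIPUS, a log2 ratio of -0.38.

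**Figure D5:**
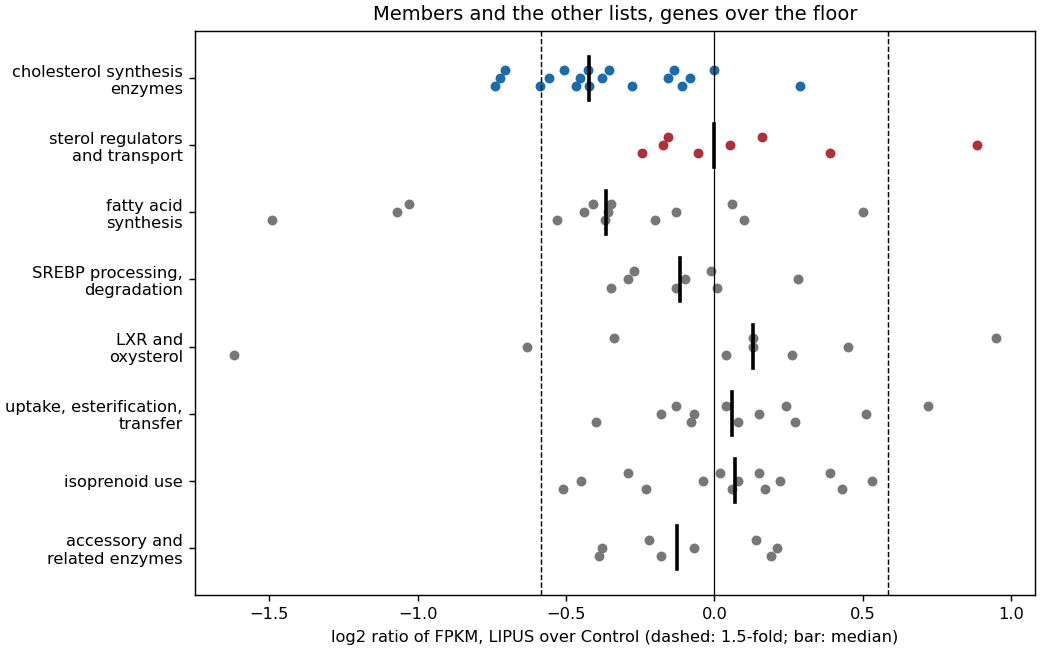
log2 ratio of FPKM, LIPUS over Control, of each gene over the floor in the members and in the 6 other lists; points are genes, black bars medians and dashed lines a fold of 1.5. The medians of the cholesterol enzymes (-0.42) and of fatty acid synthesis (-0.36) lie to the left of the others, which run from -0.13 to 0.13.

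As to the label of the cells, 3 of 8 osteocyte markers (Sost, Mepe and Fgf23) were listed at 0 in both groups, while Pdpn stood at 295 FPKM in Control and 402 FPKM with LIPUS. Gja1 stood at 176 and 170 FPKM and Cd44 at 200 and 212 FPKM. Dmp1, a matrix protein of osteocytes, was the one of 4 markers over the floor past a fold of 1.5, with 3.04 FPKM in Control and 7.65 FPKM with LIPUS, against 7.48% of all genes higher by as much. The summed FPKM of the 8 was 675 and 791, and of the 6 osteoblast markers 5730 and 5100, with Runx2, Sp7 and Alpl lower past a fold of 1.5, as were 8.08% of all genes. Most of the difference in the osteoblast sum lay in Spp1, with 4510 FPKM in Control and 4160 FPKM with LIPUS, and in Col1a1, with 891 and 731 FPKM, neither past that fold. Bglap, under the floor, was listed at 0 in Control and stood at 1.58 FPKM with LIPUS. Of 6 macrophage and blood markers, Ptprc, Adgre1 and Itgam were at 0 in both groups, and the summed FPKM was 13.7 in Control and 12.6 with LIPUS. Within that sum, Cd68, 1 of 2 markers over the floor, was lower past a fold of 1.5 (8.08% of all genes), with 5.32 and 1.72 FPKM, and Cd14 stood at 8.19 and 10.6 FPKM. Of 5 adipocyte markers, Plin1 and Lep were at 0 and the sum was 73.8 and 53.7 FPKM, a difference that lay in Fabp4 with 52.3 and 30.4 FPKM, lower past that fold, while Cebpa stood at 20.9 and 23.2 FPKM. The 4 hepatocyte markers were at 0 in both groups. All 5 osteoblast markers over the floor had a log2 ratio below 0, against 50.1% of all genes over it. The part of these markers in the lower enzyme values was not tested.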

How the data were processed

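RNA of 3 LIPUS-treated and 3 untreated MLO-Y4 cultures was sequenced as paired-end reads from stranded mRNA libraries. Per the labels, reads were processed with bcl2fastq 1.8.3, Trimmomatic 0.36, TopHat2 2.1.0 and Bowtie2 2.2.6.0 on GRCm38. The authors deposited FPKM values from Cufflinks and Cuffdiff with Ensembl transcripts, a single pooled value per group. The processing notes list Cufflinks 2.1.1, and the methods name another release. The table also holds fold changes, test statistics, p-values and q-values of the authors' own comparison, and these columns were not used. No value of a single culture was analysed here, so no test was run, and the table gives no depth for each library. The methods state a single read number for all samples.

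The log2 ratio of LIPUS over Control was computed without a pseudocount for genes with a mean FPKM of at least 1 and above 0 in both groups. A fold of 1.5 marked members as higher or lower, and their counts were read beside the share of all genes past the same fold, not as a test. All 28 members are named. From each other list the genes past a fold of 1.5 are named, or where fewer than 2 passed, the 2 with the largest absolute log2 ratio, except that 1 such gene is not reported here. The members and lists were chosen with earlier results of these data known, as were the level ranges. The lesser fold in the report, LIPUS more than 20% below or 25% above Control, is one of the alternatives, which also covered pseudocounts, other floors, a larger fold, centring and TPM. Positions and shared sequence came from GENCODE M21, with copies sought by BLAST 2.17.0 at 95% identity over 200 bases or more. The groups share replicate numbers, but the table holds no replicate values. Python 3.11.15, numpy 2.4.6, pandas 2.3.3 and matplotlib 3.10.9 were used, and the steps were tested on simulated data.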

Additional observations from a re-analysis of the deposited data

How the results depend on the processing

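No paired analysis was possible because the table gives a single pooled FPKM per group and no column carries a replicate number, and for the same reason no replicate could be left out. The count of members lower past the threshold was 12 with a lesser fold (more than 20% below Control; 17.8% of all genes) and 0 with a fold of 2 (2.83% of all genes). The count of higher members was 2 (more than 25% above Control; 16.8% of all genes) and 0 with a fold of 2 (2.66%). With a floor of 10 FPKM, 2 of 21 members were lower past a fold of 1.5, against 3.26% of the genes over that floor, since Acat2 and Mvd lie under it. Without the 9 members that share sequence with another gene at 1 FPKM or more, an alternative chosen after seeing the data, 2 of 18 members were lower and 0 higher past a fold of 1.5, against 8.08% and 7.48% of all genes, because Acat2, Hmgcs1 and Scap are among those left out. Pseudocounts of 1 and 0.1, the floor at 0, centring and rescaling to TPM, which shifted all log2 ratios by -0.05, kept the median of the enzymes between -0.47 and -0.39. Centring and TPM move every gene alike, and the floors and left-out members leave the other ratios as they are, so these say nothing about the stability of a single ratio. Summing Acat2 with Acat3, also chosen after seeing the data, gave a log2 ratio of -0.21 for the sum. With it, 3 of 27 members were lower past a fold of 1.5, against 8.08% of all genes. The lack of replicate values and of counts limits every difference given here.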
